A study of Mus musculus with 21 samples.

Results

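Interferon-induced genes are genes whose transcription rises in a cell that has received an interferon signal. Of 43 such genes, chosen by symbol, 37 had an array probe annotated to that symbol alone and are described here, out of 16248 genes measured. The brightest such probe stood for the gene, and Ifi35 was the 1 member with more than 1. The other 6 (Oas1a, Ifi44, Ifi203, Ifi47, Gbp2 and Dtx3l) had no single-symbol probe. Levels came from 21 microarrays of epididymal fat, a visceral fat depot, of male C57BL/6J mice. The mice arrived at 4 weeks of age, acclimated for 1 week and were fed their diet for 12 weeks in single housing. Each of 7 groups had 3 arrays, named here by the number in their titles. The normal diet (ND) held 10% and the high-fat diet (HFD) 40% of energy as fat. Every other group ate HFD with an addition: 0.3% by weight of the bacterium Bacillus coagulans (BC), 0.3% steamed grain (SMG), 0.3% fermented mixed grain (L_FMG) or 0.9% fermented mixed grain (H_FMG). RMG is labelled as an HFD group, and its addition is not described in the sources used here. The labels do not say whether each array came from a separate mouse, so p-values measure the spread between these arrays, which may be technical.

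Type I interferons are secreted by cells that detect foreign or misplaced nucleic acid, and interferon gamma mainly by T and natural killer cells. Type I interferons and interferon gamma bind different receptors, which signal through Jak kinases and Stat proteins. A complex that holds Stat2 and Irf9 binds a motif called the interferon-stimulated response element, and another motif, the gamma-activated site, serves the response to interferon gamma. The genes they switch on encode nucleic acid sensors, effectors that block viral RNA and protein, oligoadenylate synthetases that activate an RNA-cutting enzyme, DNA-binding PYHIN proteins, large GTPases and the machinery that loads peptides on MHC class I. In fat, adipocytes, macrophages and lymphocytes can all carry such a programme.

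The sequences just upstream of the start show the response element in members that did and did not pass a test for a difference between HFD and ND. RefSeq promoters (GRCm38.p6), 300 bases from 250 before to 50 after the start, were held for 26 of the 37 measured members. The core of the response element was searched as GAAA, any 2 bases and GAAA again on both strands, with overlapping matches allowed. It occurred in 16 of the 26 members (61.5%), against 3.99% of all 27025 genes with a promoter. It was in all 5 GTPase genes, in 4 of 8 antiviral effectors, in 3 of 4 sensor genes, in 2 of 4 oligoadenylate synthetase genes and in 1 of 4 antigen-processing genes (B2m), and in Ifi205. Of the members that passed as higher in HFD than in ND (adjusted p below 0.05) and had a promoter entry, 2 of 4 held it (Ifi205 and Eif2ak2). Of the members that did not pass, 14 of 22 did. The gamma-activated site, searched as TTC, any 3 bases and GAA, which is its own reverse complement and was added after the data were seen, occurred in 8 of 26 members (30.8%) against 9.55% of all genes. Among the GTPases, Gbp5, Gbp7 and Igtp had both motifs. A match is a string of letters, not a measured binding site. Printed below are 80 upstream bases of 8 members, 5′ to 3′ on the gene's strand, with matches to the response element core in capitals: effectors of the classical response, the PYHIN and oligoadenylate synthetase genes that stood high in HFD, and GTPase genes that did not.
Isg15, chr4:156200840-156200919, minus strand: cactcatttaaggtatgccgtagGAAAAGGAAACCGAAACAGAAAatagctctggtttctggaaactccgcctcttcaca
Ifit1, chr19:34640769-34640848, plus strand: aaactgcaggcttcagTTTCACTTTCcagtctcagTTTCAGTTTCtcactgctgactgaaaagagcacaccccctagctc
Ifi205, chr1:174031845-174031924, minus strand: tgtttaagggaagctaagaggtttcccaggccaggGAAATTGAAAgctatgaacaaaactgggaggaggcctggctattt
Oas1g, chr5:120887614-120887693, minus strand: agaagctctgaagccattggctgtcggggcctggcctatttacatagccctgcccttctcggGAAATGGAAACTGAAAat
Igtp, chr11:58199476-58199555, plus strand: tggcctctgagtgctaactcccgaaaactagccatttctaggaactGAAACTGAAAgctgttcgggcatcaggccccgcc
Gbp3, chr3:142559964-142560043, plus strand: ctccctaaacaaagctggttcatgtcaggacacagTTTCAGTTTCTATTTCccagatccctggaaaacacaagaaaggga
Oasl1, chr5:114923160-114923239, plus strand: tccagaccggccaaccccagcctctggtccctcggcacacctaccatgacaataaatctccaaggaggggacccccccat
Oasl2, chr5:114896854-114896933, plus strand: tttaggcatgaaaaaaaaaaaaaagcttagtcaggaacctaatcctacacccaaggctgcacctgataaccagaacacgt
Isg15 and Oas1g had overlapping copies (3 and 2 matches), and Ifit1 had 2 separate ones. Neither Oasl1 nor Oasl2, which both rose in HFD, held a match in its 300 bases.

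Array medians lay between 4.23 and 4.39, and no pair of arrays was identical. The labelled tissue carried its markers: the 8 adipocyte markers averaged between 8.80 and 9.76 on every array, while 7 genes of the epididymis duct averaged between 2.80 and 3.36. All levels are on the log2 scale, and a difference of 1 is a doubling of signal. Because probes differ in how well they bind, the level of one gene cannot be set against that of another. As a description, the members with the highest signals were B2m (MHC class I light chain, mean 12.12 over 21 arrays), Ifi205 (8.34) and Gbp7 (7.63), and those with the lowest were Mx1 (3.24), Mx2 (3.71) and Isg15 (3.89).

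**Figure D1:**
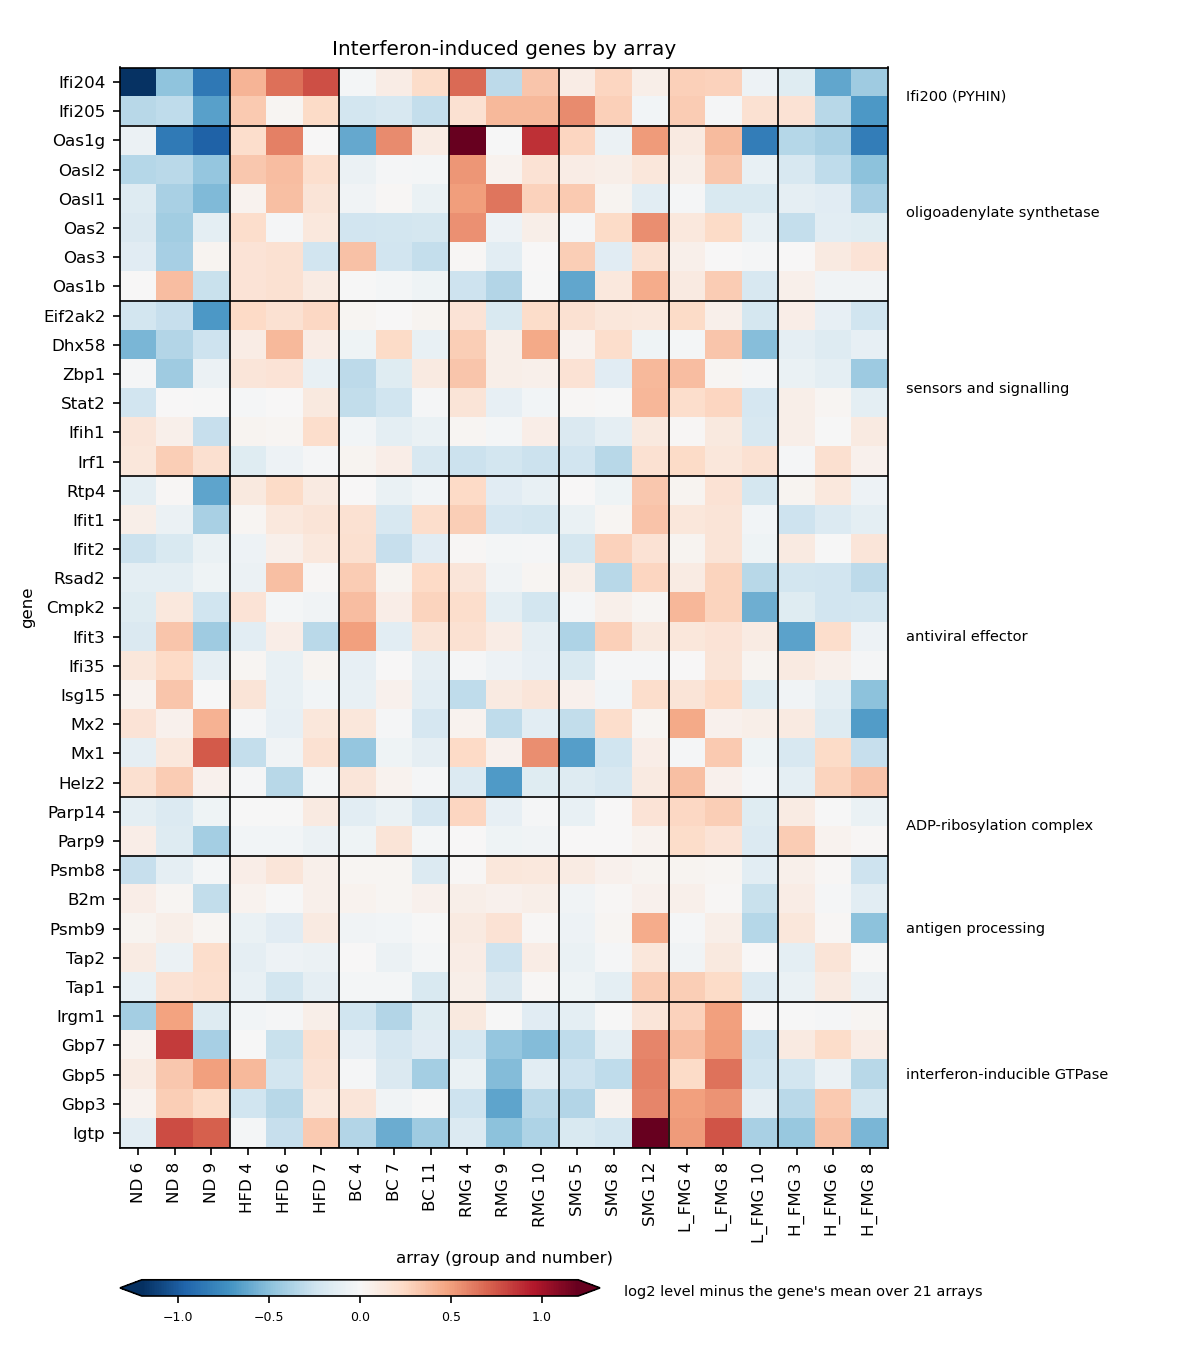
Heat map of the 37 members (rows, grouped by role) on the 21 arrays (columns); colour gives the log2 level minus the gene's mean over 21 arrays. The Ifi200 and several oligoadenylate synthetase rows are blue in ND and red in HFD, whereas the GTPase rows are red in single arrays such as SMG 12 and L_FMG 8.

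High-fat feeding was compared with the normal diet first, since every other group was fed on top of it. In HFD, 6 of the 37 members rose and 0 fell: Ifi204, Ifi205, Oasl1, Oasl2, Eif2ak2 and Dhx58. The threshold was an adjusted p below 0.05 from limma, a linear model fitted over all 16248 genes, with Benjamini-Hochberg adjustment over them. By the same rule 8.63% of all genes passed, 6.54% higher and 2.09% lower, beside 16.2% of the members. Without HFD 6 the count of members was 3 (Oasl2, Ifi204 and Eif2ak2), and 2.26% of all genes passed. Without ND 9, HFD 4 or HFD 7 it was 4, and 8.38%, 5.85% and 5.08% of all genes passed. At an unadjusted p below 0.05 there were 11 members (29.7%, against 25.3% of all genes), and 23 members had a change above 0 (62.2%, against 44.1% of all genes). The median change of the members was 0.11, against -0.04 for all genes. Without ND 9, the array that was lowest of its group for Eif2ak2, Rtp4 and B2m, the members' median was -0.01. HFD and ND arrays did not overlap for 12 members that were higher (15.7% of all genes) and 2 that were lower (13% of all genes).

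Both PYHIN genes rose. Ifi204, which encodes a DNA-binding protein of the Ifi200 family on chromosome 1, had levels of 4.57, 5.28 and 4.90 in ND and 6.17, 6.42 and 6.53 in HFD. Every HFD array lay above every ND array by a wide margin. The change was 1.45 ± 0.20 (SE, n = 3 and 3), a 2.74-fold higher signal, with a limma adjusted p of 0.00275. Ifi205, from the same family and chromosome, stood at 8.02, 8.04 and 7.70 in ND and at 8.66, 8.37 and 8.58 in HFD, again with no overlap. It rose by 0.62 ± 0.17, or 1.54-fold (limma adjusted p = 0.0280), but did not pass without ND 9, HFD 4, HFD 6 or HFD 7. After quantile normalization it was higher by 0.46 and did not pass either (limma adjusted p = 0.0699). Genes of this family are alike in sequence and lie side by side, so how far a probe reads its neighbours is uncertain. In bulk tissue, fewer cells of a type and less RNA per cell cannot be told apart.

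All 6 oligoadenylate synthetase members were higher in HFD than in ND, also after quantile normalization and after centring each array, and 2 of them passed. Oasl2 had 5.87, 5.88 and 5.74 in ND against 6.53, 6.58 and 6.41 in HFD. The groups were far apart relative to the spread within each, at 0.68 ± 0.12 (1.60-fold, limma adjusted p = 0.00358). Oasl1, whose product is known to restrain translation of the regulator Irf7, measured 4.69, 4.45 and 4.31 in ND and 4.88, 5.20 and 4.99 in HFD. It rose by 0.54 ± 0.14 (limma adjusted p = 0.0164). Without ND 8, ND 9 or HFD 6 it was still higher, by 0.53, 0.46 and 0.46, but did not pass (limma adjusted p from 0.05005 to 0.110). Oas1g, which synthesises the activator of RNase L, read 3.94, 3.16 and 3.04 in ND and 4.22, 4.62 and 4.02 in HFD. The difference of 0.91 ± 0.35 was larger than that of Oasl2, but its arrays scattered more and it did not pass (limma adjusted p = 0.106). Oas2, Oas3 and Oas1b differed by 0.34, 0.21 and 0.11 and did not pass either. The Oas1 genes on chromosome 5 are near copies of each other, so the assignment of their signal is uncertain.

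Of 6 members that sense nucleic acid or carry the signal, 2 rose. Eif2ak2, the kinase that stops protein synthesis on meeting double-stranded RNA, had 6.06, 6.01 and 5.59 in ND and 6.52, 6.47 and 6.54 in HFD. HFD arrays were tightly grouped above the ND arrays, of which ND 9 was the lowest, and the change was 0.62 ± 0.13 (1.54-fold, limma adjusted p = 0.00706). Dhx58, a helicase that tunes RNA sensing, had 4.55, 4.76 and 4.86 in ND and 5.19, 5.49 and 5.19 in HFD. Its change of 0.57 ± 0.16 passed (limma adjusted p = 0.0351), but not when ND 6, ND 8 or any single HFD array was left out. The RNA sensor Ifih1 differed by 0.11, the signal carrier Stat2 by 0.11 and the Z-nucleic acid sensor Zbp1 by 0.25, none past the threshold. Irf1, a transcription factor strongly induced by interferon gamma, was on the other side: 6.35, 6.50 and 6.40 in ND against 6.07, 6.15 and 6.20 in HFD. Its groups did not overlap, yet the difference of -0.28 ± 0.11 did not pass (limma adjusted p = 0.122), except after quantile normalization.

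**Figure D2:**
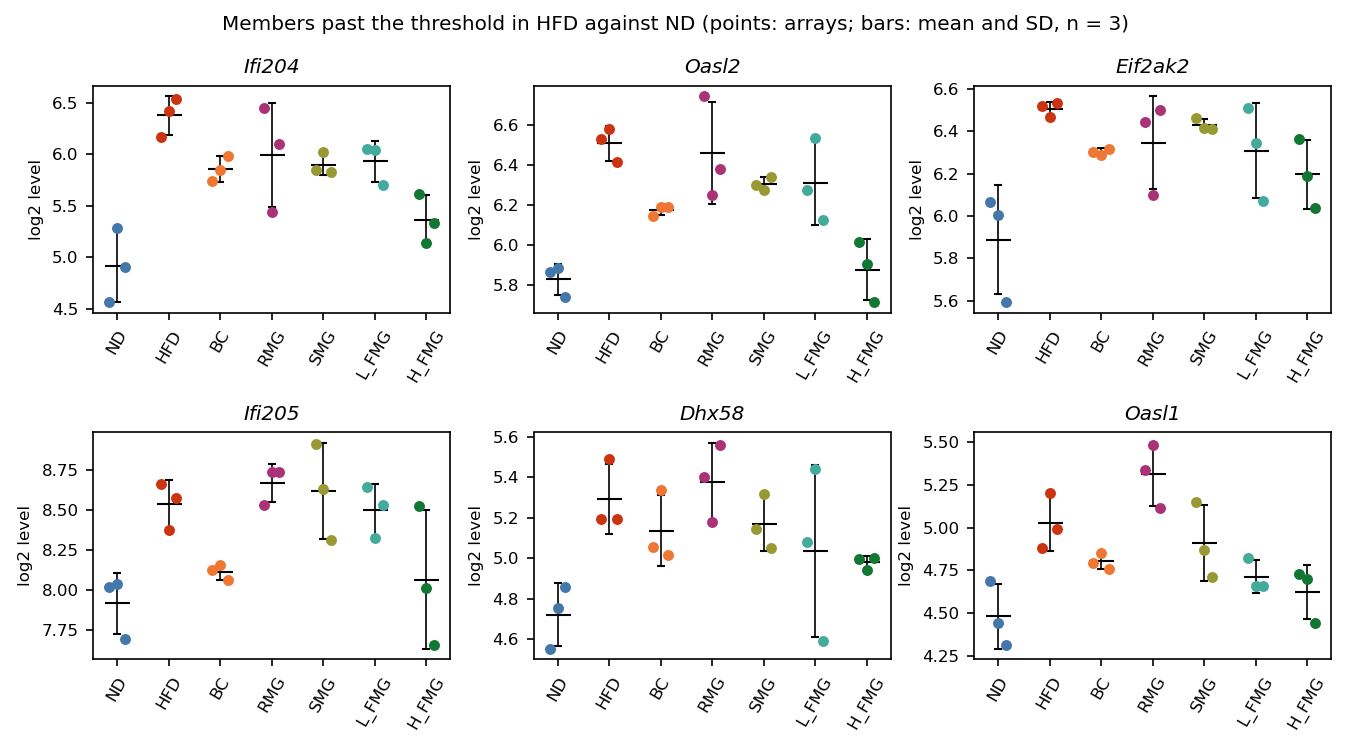
Log2 levels of the 6 members that rose in HFD, by group; points are arrays, bars the mean and whiskers the SD of 3 arrays, with a separate vertical range in each panel. HFD lies above ND in all 6. In H_FMG, Oasl2, Ifi204, Oasl1, Eif2ak2 and Dhx58 lie below all HFD arrays, and Ifi205 overlaps them. Oasl2 and Ifi204 lie below all HFD arrays in BC and SMG too.

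The 11 members grouped as antiviral effectors had 0 past the threshold, with 5 above and 6 below 0 and a median change of -0.04. Rtp4, a receptor chaperone with antiviral action, came nearest: 6.28, 6.41 and 5.75 in ND and 6.51, 6.62 and 6.50 in HFD. The groups did not overlap, and the change of 0.40 ± 0.15 missed the threshold (limma adjusted p = 0.0948). Ifit1, Ifit2 and Rsad2, classical type I interferon targets, differed by 0.23, 0.22 and 0.20. Ifit3 differed by -0.04 and Cmpk2, a mitochondrial nucleotide kinase, by 0.12. The ubiquitin-like modifier Isg15 differed by -0.11, and the dynamin-like GTPases Mx1 and Mx2 by -0.30 and -0.20. Helz2, a helicase known as a nuclear receptor coactivator, was lower without overlap (-0.31 ± 0.15, limma adjusted p = 0.217). Ifi35 differed by -0.10, and its second, dimmer probe by -0.09. Of the 11, Rtp4 alone had an unadjusted p below 0.05. After quantile normalization 6 of the 11 were above 0.

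No peptide loading or ADP-ribosylation gene passed. Among the antigen-processing members, the immunoproteasome subunit Psmb8 was higher without overlap (0.23 ± 0.10, limma adjusted p = 0.136). The peptide transporter genes Tap1 and Tap2 differed by -0.23 and -0.16, the immunoproteasome subunit Psmb9 by -0.08 and B2m by 0.10. Parp9 and Parp14, which add ADP-ribose to proteins, differed by 0.11 and 0.14, and after quantile normalization both were below 0.

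The 5 GTPase members, which coat and break the membranes around intracellular microbes, had 4 of 5 below 0 in HFD, also under both other scalings, with a median of -0.19 and 0 past the threshold or at an unadjusted p below 0.05. Igtp read 6.01, 6.92 and 6.85 in ND and 6.12, 5.86 and 6.46 in HFD. ND 6 lay among the HFD arrays, and the difference of -0.45 ± 0.34 did not pass (limma adjusted p = 0.420). Gbp3 read 5.42, 5.67 and 5.60 in ND and 5.13, 5.04 and 5.49 in HFD, a difference of -0.34 ± 0.21 (limma adjusted p = 0.323). Gbp5, Gbp7 and Irgm1 differed by -0.19, -0.18 and 0.03. Guanylate-binding protein genes are close copies, so their signal may be shared between them.

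**Figure D3:**
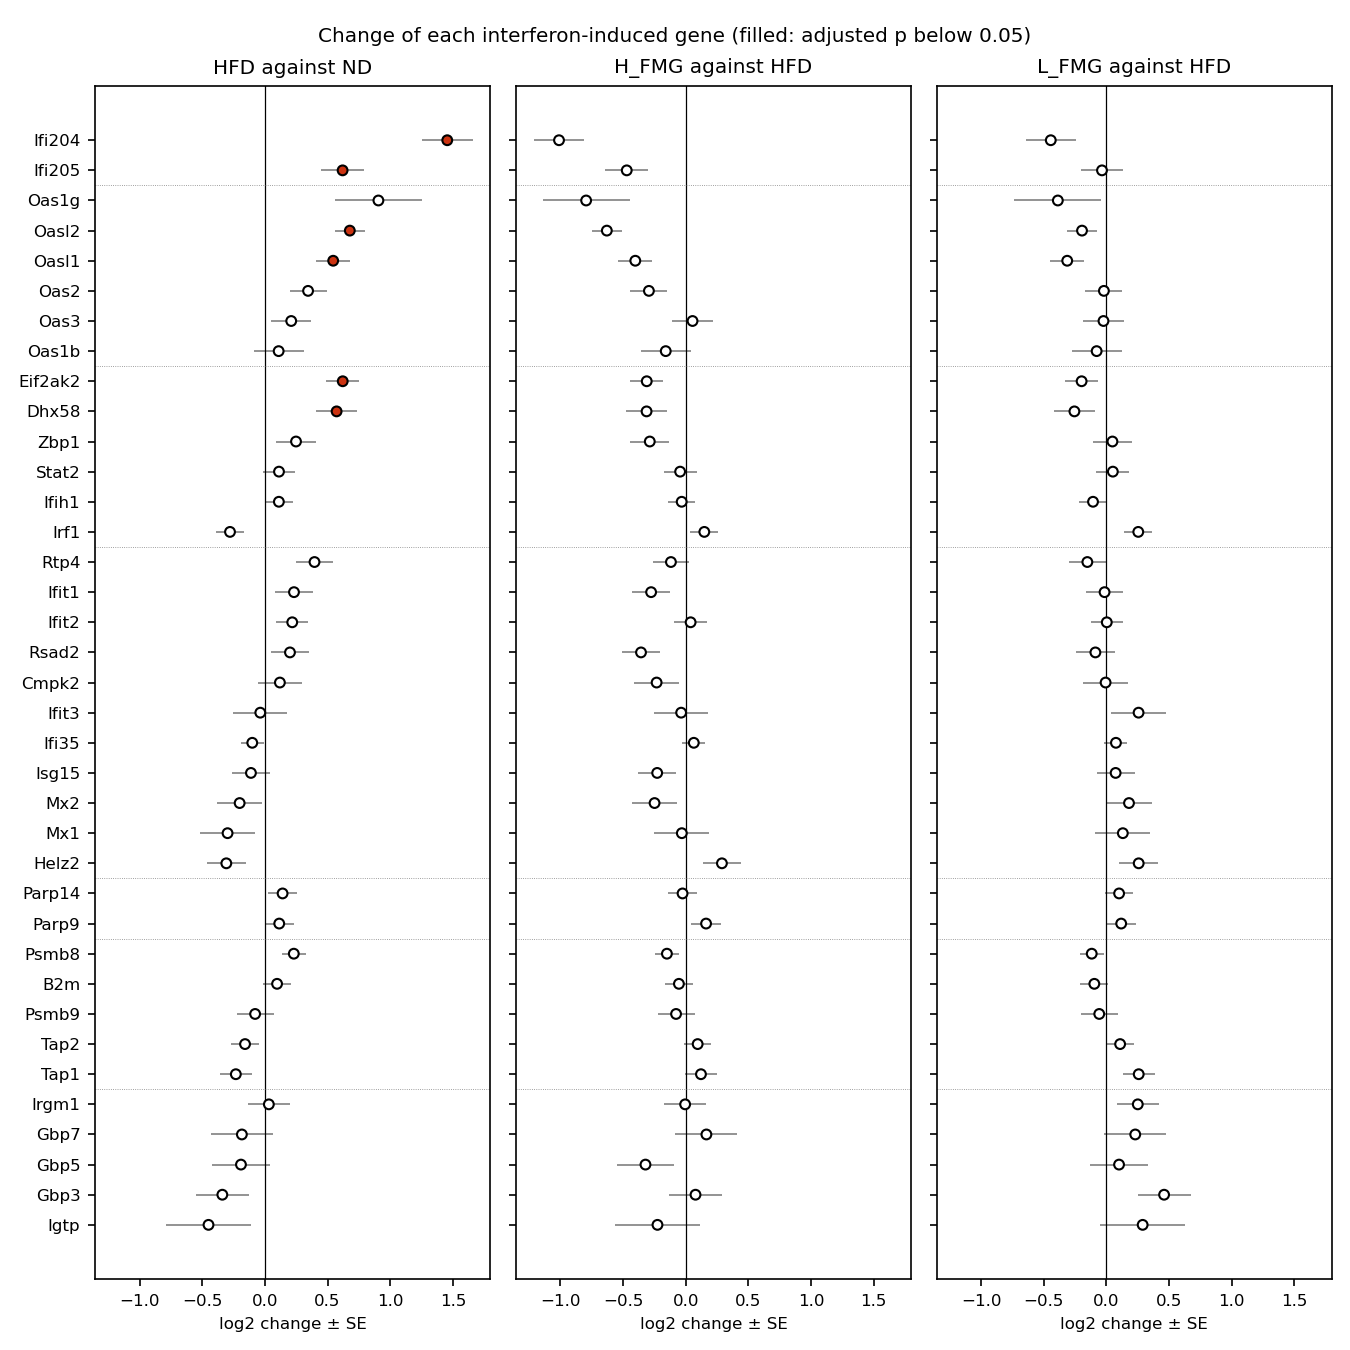
Change of each member (log2 scale, points, with standard errors as bars) in HFD against ND, H_FMG against HFD and L_FMG against HFD, with members grouped by role from the Ifi200 genes at the top to the GTPases at the bottom. Filled points passed an adjusted p of 0.05: 6 in the first panel and 0 in the other panels.

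Markers of macrophages also differed between HFD and ND. Of 14 measured macrophage markers, 12 rose in HFD, among them Fcgr1 (1.99), Cd68 (1.60) and Adgre1 (1.51). Of the 14, 13 were above 0, with a median change of 1.00 and a lowest change of -0.24. The mean of the 14 ran from 7.41 to 7.89 in ND, 8.56 to 8.75 in HFD, 7.94 to 8.50 in BC and 8.76 to 8.93 in RMG. It ran from 8.03 to 8.83 in SMG, 7.89 to 8.29 in L_FMG and 7.44 to 8.28 in H_FMG, and every marker was above 4.2 on every array. The mean of the 6 oligoadenylate synthetase members was 4.74 to 4.98 in ND, 5.18 to 5.40 in HFD and 5.02 to 5.13 in BC. It was 5.15 to 5.57 in RMG, 5.17 to 5.41 in SMG, 4.89 to 5.30 in L_FMG and 4.83 to 4.98 in H_FMG. In SMG 12 this mean was the highest of its group (5.41), while the macrophage marker mean was the lowest (8.03). The mean of the 5 GTPase members ran from 5.73 to 6.35 in ND and 5.58 to 5.98 in HFD. Other lists moved as well. Of 10 markers of lipid-associated macrophages 8 rose (median 1.10), and of 10 fibroblast and progenitor markers 4 rose, with all 10 above 0 (median 0.58). Of 8 endothelial markers 2 fell, with 0 above 0 (median -0.44), and of 8 adipocyte markers 3 fell, with 1 above 0 (median -0.41). The mean of the fibroblast list ran from 7.99 to 8.30 in ND, 8.74 to 8.78 in HFD and 8.02 to 8.54 in H_FMG. That of the endothelial list ran from 7.60 to 7.84, 7.13 to 7.40 and 7.57 to 7.92, and that of the adipocyte list from 9.26 to 9.76, 8.98 to 9.29 and 9.43 to 9.58. The part of any of these lists in the result was not tested. Markers of T and natural killer cells, sources of interferon gamma, had 0 of 7 past the threshold and averaged between 3.87 and 4.18 on every array. For plasmacytoid dendritic cells, specialised makers of type I interferon, only 3 of the listed markers were measured (Tcf4, Ly6d and Il3ra) and 0 passed. With so few markers here, and low signals in the T and natural killer cell list, changes in these cells cannot be judged.

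**Figure D4:**
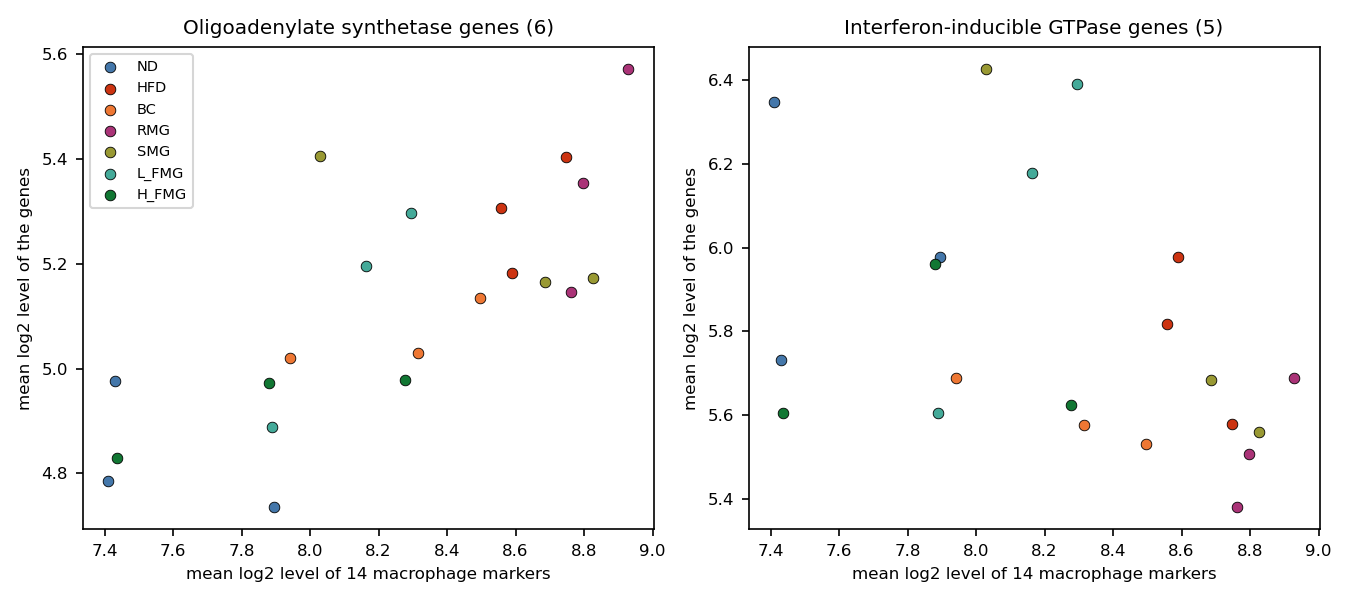
Mean log2 level of 14 macrophage markers (horizontal) against the mean log2 level of the 6 oligoadenylate synthetase members (left) and the 5 GTPase members (right); each point is 1 array, coloured by group. ND and HFD arrays separate along the horizontal axis, and GTPase levels of SMG 12 (6.43) and L_FMG 8 (6.39) were the highest of the 21 arrays.

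Genes that make and receive the signal were described by their own lists. None of the 15 measured interferon genes passed in HFD against ND, with 3 at an unadjusted p below 0.05 (25.3% of all genes). Of the 15, 4 were above 0, with a median change of -0.17. Their mean ran from 3.57 to 3.72 in ND and from 3.42 to 3.47 in HFD. Some had very low signals, such as Ifna11 (mean 1.42 over all arrays), Ifna13 (1.64) and Ifnb1 (2.18), while Ifna4 had 6.42. Ifng itself ran from 3.04 to 3.60 over all arrays. Of 13 receptor and Jak-Stat genes, 8 were above 0, and the lowest change was -0.19. In this list 5 rose (6.54% of all genes) and 0 fell (2.09% of all genes). The 5 were Il10rb (0.66 ± 0.14), Ifnar1 (0.52 ± 0.13), Ptpn2 (0.49 ± 0.14), Irf9 (0.44 ± 0.13) and Ifnar2 (0.30 ± 0.09). Ifnar1 and Ifnar2 together form the type I receptor, and Irf9 is the DNA-binding part of its Stat complex. Of 11 sensing genes, all above 0, 4 rose (6.54% of all genes) and 0 fell (2.09% of all genes). They were Unc93b1 (0.87 ± 0.18), which carries endosomal Toll-like receptors, Trim25 (0.55 ± 0.11), which activates an RNA sensor, Tlr4 (0.45 ± 0.12) and Samhd1 (0.33 ± 0.10). Of 45 other interferon-induced genes, 5 rose (6.54% of all genes) and 1 fell (2.09% of all genes). In this list 21 of 45 were above 0, with a median change of -0.008. Ifi207, an Ifi200 family gene, rose by 1.40 ± 0.27 (limma adjusted p = 0.00481) and its relative Mndal by 0.49 ± 0.13, while the chemokine gene Cxcl11, an interferon gamma target, fell by 0.70 (limma adjusted p = 0.0401). Slfn2, Lgals3bp and Epsti1 rose by 1.08, 0.61 and 0.59. No gene of these 4 lists passed in any other comparison of a pair of groups.

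Outside HFD against ND, the pathway genes with the smallest p are given as values. Some of them had low signals: Ifi208 (mean 1.92 over all arrays), Ifi202b (2.08), Gbp6 (2.20), Ifit1bl1 (2.50), Ifnab (2.63) and Ifna12 (2.93). The median of such means over all genes was 4.725, and the changes of these dim genes are uncertain. In H_FMG against HFD they were Unc93b1 (-0.65 ± 0.18, limma adjusted p = 0.139), Samhd1 (-0.35 ± 0.10), Slfn2 (-0.75 ± 0.23), Ifi207 (-0.78 ± 0.27) and Il10rb (-0.37 ± 0.14). All 5 are among the genes that rose in HFD. Both comparisons use the same 3 HFD arrays, so a chance high value there would give both differences. In BC against HFD they were Ifi208 (0.48), Mndal (-0.29), Samhd1 (-0.23), Ifi207 (-0.60) and Trim25 (-0.23), each with a limma adjusted p of 0.917. In L_FMG against HFD they were Nmi (0.28), Slfn2 (-0.54), Il10rb (-0.33), Gbp6 (0.40) and Gbp8 (0.60), and the last pair are further GTPase genes. Every comparison with HFD shares its 3 arrays. RMG against HFD gave the GTPase genes Gbp11 (-0.56) and Iigp1 (-0.60), Ifit1bl1 (-0.64), Xdh (-0.16) and the signalling inhibitor Socs3 (0.28). SMG against HFD gave the ligand genes Ifnab (0.52) and Ifna12 (-0.33), the GTPase genes Gbp10 (0.23) and Gbp6 (0.25), and Phf11b (0.21). Between the doses they were Ifit1bl1 (-0.79), Ifi202b (0.38), H2-T23 (-0.30), Gbp10 (-0.34) and Samhd1 (-0.23). H_FMG against ND gave Mndal (0.51, limma adjusted p = 0.379), Ifnab (-0.79), Ifit1bl1 (-0.86), Ifna1 (-0.35) and Trim25 (0.31).

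The additions to HFD were then each compared with HFD alone. All 5 comparisons use the same 3 HFD arrays, and the 6 members above were picked by those arrays too, so that a chance high value in HFD would make them lower in every one. Their values are therefore given side by side, and the counts are not independent.

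BC had 0 of 37 members past the threshold, as it had of all 16248 genes (0 percent), and 4 members had an unadjusted p below 0.05 (5.18% of all genes). Its arrays lay below the HFD arrays without overlap for 13 members, against 7.35% of all genes, and above them for 0, against 7.11%. In all 26 members were below 0 (47.7% of all genes), with a median of -0.13. The 13 included both PYHIN members and 4 of 6 oligoadenylate synthetase members. Oasl2 had 6.14, 6.19 and 6.19 in BC, all below the lowest HFD array, a difference of -0.33 ± 0.12 (limma adjusted p = 0.917). Ifi204 had 5.74, 5.85 and 5.99 (-0.52 ± 0.20), Ifi205 8.12, 8.16 and 8.06 (-0.42 ± 0.17), and Oas2 6.18, 6.19 and 6.19 (-0.33 ± 0.15), each with the same adjusted p. For each of these 4 the highest BC array lay below the lowest HFD array. All 6 oligoadenylate synthetase members were below 0 under each scaling. Igtp differed by -0.46 ± 0.34, and the GTPase members had a median of -0.25 with 4 of 5 below 0. The 14 macrophage markers were lower than in HFD in all 14 cases, with a median of -0.41 and 0 past the threshold, and their part was not tested.

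For H_FMG, the higher dose of fermented grain, 0 of 37 members passed against HFD, and 1 of all genes did (0.00615%). At an unadjusted p below 0.05 there were 7 members, against 14.5% of all genes. The groups did not overlap for 12 lower members (11.4% of all genes) and 2 higher ones (10.7% of all genes), Parp9 and Tap1. In all 27 members were below 0 (46.4% of all genes), with a median of -0.12. Without H_FMG 6 the median was -0.19, and without H_FMG 8 it was -0.06. Oasl2 had 6.02, 5.90 and 5.72 in H_FMG, all below the lowest HFD array of 6.41 and overlapping the ND arrays. The difference from HFD was -0.63 ± 0.12, with a limma adjusted p of 0.0816. Ifi204 had 5.62, 5.14 and 5.33, also below all HFD arrays, a difference of -1.01 ± 0.20 (limma adjusted p = 0.0816). Without H_FMG 3, the array that was highest of its group for both, these 2 and Ifi205 passed, at limma adjusted p-values of 0.0294, 0.0294 and 0.0380.

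Ifi205 itself had 8.52, 8.01 and 7.66 in H_FMG, with H_FMG 3 among the HFD arrays, and differed by -0.47 ± 0.17. Oasl1 had 4.73, 4.70 and 4.44 and differed by -0.40 ± 0.14. Oas1g had 3.67, 3.62 and 3.18, below all HFD arrays, and differed by -0.79 ± 0.35. Rsad2, the radical enzyme viperin, differed by -0.36 ± 0.15 and Eif2ak2 by -0.31 ± 0.13. The GTPases showed no shared direction, with 2 above and 3 below 0 and a median of -0.00. Of the macrophage markers, 12 of 14 had an unadjusted p below 0.05 and 0 passed, with a median of -0.79, and their part was not tested.

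L_FMG, at 0.3%, had 0 members and 0 of all genes past the threshold (0 percent), and 4 members at an unadjusted p below 0.05 (8.66% of all genes). Of the 37 members, 18 were below 0 (48.8% of all genes). Arrays did not overlap for 3 higher members (Irf1, Ifit3 and Tap2, against 7.3% of all genes) and 3 lower ones (Oasl1, Ifi204 and Psmb8, against 10.1%). The roles went different ways: all 6 oligoadenylate synthetase members were below 0 (5 of 6 after quantile normalization) and all 5 GTPases above 0, the latter under each scaling. Oasl1 had 4.82, 4.66 and 4.66, all below HFD (-0.31 ± 0.14), and Ifi204 6.05, 6.04 and 5.70, all below HFD as well (-0.44 ± 0.20). Irf1 had 6.44, 6.35 and 6.39, all above HFD (0.25 ± 0.11). Gbp3 had 5.87, 5.91 and 5.27 and differed by 0.46 ± 0.21, with L_FMG 10 among the HFD arrays. The limma adjusted p-values of these 4 ran from 0.543 to 0.558. The macrophage markers had a median of -0.51, with 0 of 14 past the threshold and 9 at an unadjusted p below 0.05, and their part was not tested.

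Between the doses, no HFD array is involved. H_FMG against L_FMG gave 0 members and 0 of all genes past the threshold (0 percent), with 5 members at an unadjusted p below 0.05 (3.91% of all genes). Of the 37 members, 30 were below 0, against 48.2% of all genes, and 5 were lower without overlap (3.28% of all genes): Oasl2, Ifi204, Zbp1, Oas2 and Ifit1. None was higher without overlap (4.79% of all genes). After quantile normalization 27 were below 0 and after centring 28. The 6 members that rose in HFD were all lower at the higher dose, from -0.57 for Ifi204 to -0.06 for Dhx58. Oasl2 had 6.28, 6.54 and 6.12 in L_FMG against 6.02, 5.90 and 5.72 in H_FMG (-0.43 ± 0.12), with an unadjusted p of 0.00166 and a limma adjusted p of 0.998. The lowest L_FMG array lay above the highest H_FMG array. Ifi205 had 8.64, 8.33 and 8.53 in L_FMG and 8.52, 8.01 and 7.66 in H_FMG, with overlap (-0.43 ± 0.17). Mx2 had 4.16, 3.76 and 3.78 in L_FMG and 3.82, 3.56 and 3.04 in H_FMG (-0.43 ± 0.18). H_FMG 3 lay among the L_FMG arrays for both genes, and H_FMG 8 was the lowest. All 5 GTPases were below 0 under each scaling, with a median of -0.38. The members' median was -0.13, without L_FMG 10 it was -0.28, and without L_FMG 4 it was -0.06. The macrophage markers had a median of -0.26, with 0 past the threshold, and their part was not tested.

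SMG had 0 members and 0 of all genes past the threshold (0 percent), and 1 member, Ifi204, at an unadjusted p below 0.05 (1.85% of all genes). Of the members, 21 were below 0 (48.3% of all genes), 3 of them without overlap (Ifi204, Oasl2 and Eif2ak2, against 3.51%), and Parp9 was higher without overlap (4.75% of all genes). Ifi204 had 5.85, 6.02 and 5.83, below all HFD arrays (-0.48 ± 0.20), and Oasl2 had 6.30, 6.28 and 6.34, likewise below (-0.20 ± 0.12). Tap1 had 6.88, 6.81 and 7.24 (0.18 ± 0.13) and Ifih1 6.83, 6.90 and 7.13 (-0.15 ± 0.11). Both overlapped with HFD, and SMG 12 was the highest array for both. The macrophage markers had a median of -0.14 in SMG against HFD, with 0 past the threshold, and their part was not tested.

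RMG also had 0 members and 0 of all genes past it (0 percent), and 1 member at an unadjusted p below 0.05 (2.82% of all genes). Of the members, 23 were below 0 (45.9% of all genes). Oas1b and Irf1 were lower without overlap (4.65% of all genes) and 0 members higher (6.35% of all genes). That member, Oasl1, had 5.34, 5.48 and 5.12 and was higher than in HFD by 0.29 ± 0.14. Ifi204 scattered in RMG, at 6.44, 5.44 and 6.09 (-0.38 ± 0.20), with RMG 4 among the HFD arrays and RMG 9 lowest. Oas1b had 4.35, 4.24 and 4.59 (-0.35 ± 0.20) and Gbp5 4.90, 4.46 and 4.85 (-0.36 ± 0.23), the latter overlapping with HFD. All 5 GTPases were below 0, with a median of -0.35. The macrophage markers had a median of 0.17, with 0 past the threshold, and their part was not tested.

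Against the normal diet itself, H_FMG had 0 members past the threshold and 1 of all genes (0.00615%), with 6 members at an unadjusted p below 0.05 (8.36% of all genes). Of the 37 members, 18 were above 0 (50.9% of all genes), 14 after quantile normalization and 20 after centring. This comparison shares the 3 ND arrays with the one that picked the 6 members that rose in HFD, so a chance low value in ND would place them above 0 here too. As a description, their values ran from 0.05 for Oasl2 to 0.44 for Ifi204. Eif2ak2 had 6.36, 6.19 and 6.04 in H_FMG and was differed from ND by 0.31 ± 0.13, with overlap. Parp9 had 7.17, 6.91 and 6.88 and differed by 0.28 ± 0.12, with ND 6 among the H_FMG arrays. Mx2 differed by -0.45 ± 0.18, with overlap. Gbp5 had 4.76, 4.91 and 4.64 against 5.07, 5.30 and 5.47 in ND, a difference of -0.51 ± 0.23 without overlap. The limma adjusted p-values of these 4 ran from 0.564 to 0.584. H_FMG arrays lay above all ND arrays for Ifit2 and Dhx58 (4.79% of all genes) and below them for Gbp5, Isg15 and Rsad2 (5.49% of all genes).

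Over all 7 groups at once, limma's moderated F test passed 4 members (10.8%, against 6.47% of all genes), and 10 had an unadjusted p below 0.05 (18.6% of all genes). They were Ifi204 (adjusted p = 0.00440), Oasl2 (0.00559), Oasl1 (0.00860) and Ifi205 (0.0193). Eif2ak2 (limma adjusted p = 0.0573) and Irf1 (limma adjusted p = 0.0696) came next and did not pass. With limma array weights 9 members passed, these 2 among them. Eif2ak2 also passed after centring, after dim genes were left out, and without RMG 9, L_FMG 4, L_FMG 10 or H_FMG 3 (limma adjusted p from 0.0317 to 0.0478). Irf1 also passed after quantile normalization (limma adjusted p = 0.0318) and without SMG 12 (limma adjusted p = 0.00497). Irf1 was highest in ND, at 6.35 to 6.50, and in L_FMG, at 6.35 to 6.44, and lowest in RMG, at 5.95 to 5.99. The RMG arrays lay below all HFD arrays, and the ND and L_FMG arrays above them.

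Within groups, single arrays stood high or low for many members. SMG 12 was the highest of its group for 26 of 37 members and for all 5 GTPases, against 38.9% of all genes. Igtp read 7.34 there and 5.96 and 5.92 in the other SMG arrays. L_FMG 10 was the lowest of its group for 31 members, among them all 5 GTPases, and the highest for 0, against 39.9% of all genes lowest. In L_FMG, Igtp read 6.65, 6.90 and 5.75, the last in L_FMG 10. RMG 4 was the highest of its group for 25 members (26.8% of all genes) and RMG 9 the lowest for 24 (32.6% of all genes). The macrophage markers had another order in SMG, where SMG 12 had the lowest marker mean at 8.03. In L_FMG the array L_FMG 10 also had the lowest marker mean, at 7.89. The part of the markers in these differences was not tested.

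**Figure D5:**
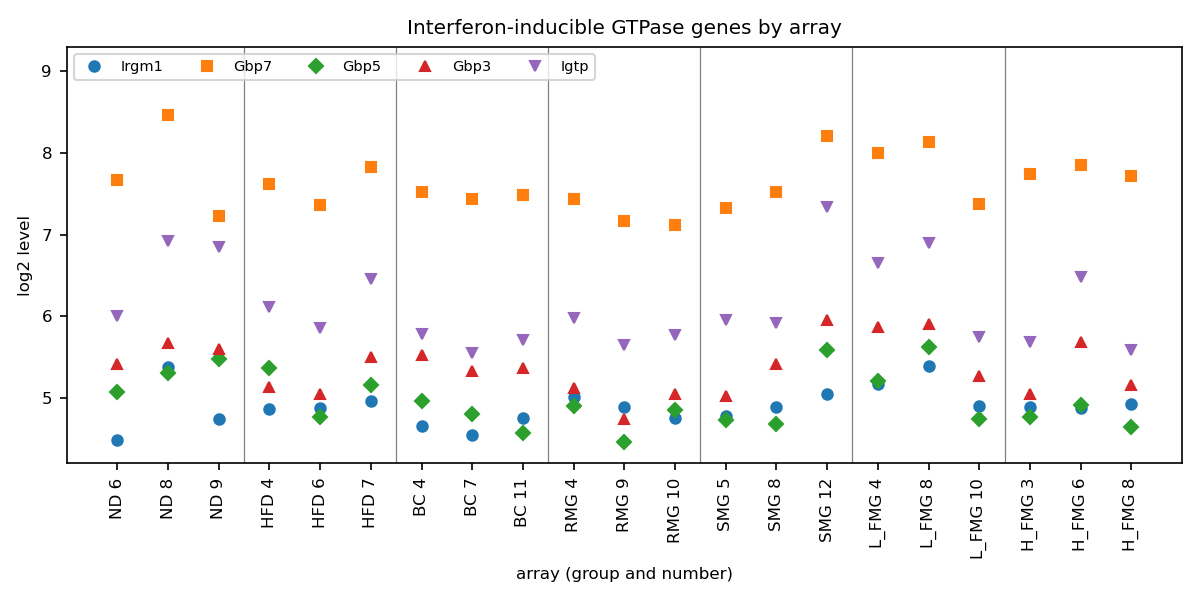
Log2 level of the 5 GTPase members on each of 21 arrays, with vertical lines between groups. Within SMG and L_FMG the 5 genes are high or low on the same arrays, as for Igtp at 7.34 in SMG 12 and 5.75 in L_FMG 10.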

How the data were processed

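Total RNA of epididymal fat, extracted with Trizol and biotin-labelled with a GeneChip whole-transcript kit per the labels' protocols, was read on 21 arrays. The deposited table held the authors' processed log2 values, 1 per probe and array, taken as log2 from their range of 0.844 to 12.713. For the authors' summarisation, background correction and normalization, the method was not given in the sources used here. Groups came from the labels.

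The table had 24292 probes, the last with 12 values only, so 24291 were used. GEO's platform annotation, updated through RefSeq genes (GRCm38.p6), gave 1 symbol for 17067 probes, several for 1139 and none for 6085. Most genes of chromosomes 7, 8, 9 and X, and part of 6, were not analysed here. The brightest single-symbol probe stood for each of 16248 genes (668 had several). Level filters were not applied.

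limma 3.58.1 in R 4.3.3 (lmFit, eBayes with intensity trend) fitted 1 coefficient per group over all arrays, with 14 residual degrees of freedom and two-sided tests. Benjamini-Hochberg adjustment ran over all genes, with a threshold of 0.05. The procedure was tested on simulated data. With 3 arrays a group, the number of arrays limits the precision. Promoters were searched in Python 3.11.15.

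The members and lists were chosen with earlier results of these data known. Members named with array values were, in each comparison, up to 8 with the largest change among those past the threshold or, where fewer than 4 passed, the 4 with the smallest p; the 6 with the smallest p in the F test; and the 3 highest and 3 lowest in level. Outside this rule, array values were also given for Oas1g, Rtp4, Igtp and Gbp3 in HFD against ND. The same holds for Oas1g in H_FMG against HFD and for Igtp within SMG and L_FMG. Pathway genes named with changes in HFD against ND are those past the threshold. Alternatives were quantile normalization, median centring, a filter on dim genes, the mean of probes, all probes, array weights, no trend, a replicate block, a fit on the compared groups alone and leaving out each array.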

Additional observations from a re-analysis of the deposited data

How the results depend on the processing

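The count of 6 members past the threshold in HFD against ND was 2 (Oasl2 and Ifi204) with a replicate block, and between 3 and 5 when 1 array was left out. The block used the numbers in the titles, and whether these pair the arrays is not known. Over 18 pairs of arrays with the same number the correlation of deviations ran from -0.30 to 0.18, with 2 above 0.1. Deviations about means of 3 arrays cannot settle the question. The block left 5 residual degrees of freedom against 14. Ifi204 and Oasl2 passed under all 15 alternatives run, Eif2ak2 under 14, Oasl1 under 10, Ifi205 under 9 and Dhx58 under 8, and all 6 were higher in HFD under all 15. For H_FMG against HFD the count of 0 was 2 with limma array weights and between 0 and 3 when 1 array was left out, the 3 without H_FMG 3. For the F test the count of 4 was 9 with array weights and between 4 and 6 when 1 array was left out. In the remaining comparisons the count stayed at 0 under the alternatives run. Over all genes, the count of 1403 in HFD against ND ran from 524 to 2432 over the settings and from 368 to 1457 without 1 array. The count of 1 for H_FMG against HFD reached 566 with array weights and 257 without H_FMG 3, and that of 1 for H_FMG against ND reached 29. The F test's 1051 ran from 804 to 2695, and from 567 to 1485 without 1 array. Of the genes past the threshold in HFD against ND, 75.8% were higher, 60.3% after quantile normalization and 81.9% after centring, and the members above 0 numbered 23, 20 and 23. The causes were not tested. With 3 arrays a group, and values whose normalization is unknown, differences near the spread between arrays cannot be resolved.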
